A study of Mus musculus with 6 samples.

Results

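Integrins are the adhesion receptors through which a fibroblast holds its matrix, and 10 integrin subunit genes were followed here in fibroblasts treated with TGFβ. They were picked by symbol from the 25140 genes of the count table: *Itga1*, *Itga4*, *Itga5*, *Itga8*, *Itga11*, *Itgav*, *Itgb1*, *Itgb3*, *Itgb5* and *Itgb8*. All 10 were found in the table and all 10 passed the filter on low counts, which left 14334 genes to test. Each integrin is a pair of 1 α and 1 β subunit, and the pairing decides which ligand is held. The α1 and α11 subunits pair with β1 to bind collagen, and α5, α8 and αv belong to the receptors for ligands that carry the tripeptide Arg-Gly-Asp (RGD), such as fibronectin, vitronectin and nephronectin. The β3, β5 and β8 subunits pair with αv, and αv integrins can release active TGFβ from its latent complex, which ties these receptors to fibrosis in the heart and other organs.

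The RNA came from primary mouse cells labelled as cardiac fibroblasts of the adult heart, C57BL/6 strain, at passage 1. No transgene or gene deletion is named for either group, and neither sex, exact age nor the number of animals is given. Cells were grown in DMEM with 25 mM glucose and 10% serum, brought to 1% serum for 16 h (by the labels, whereas the study's methods give a longer time) and then kept for 24 h with vehicle or with TGFβ at 10 ng/ml, with 3 libraries in each group. The study's results call these cells embryonic fibroblasts, whereas its methods and the labels call them cardiac fibroblasts. Design notes name the aim as following the transcriptional changes of myofibroblast differentiation, the step in which fibroblasts gain contractile fibres and matrix output.

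Libraries held 27851677 to 31072338 counts. The count columns carry no replicate number, so each library is named by its total, and values are listed in the order 31072338, 29296570 and 29331999 counts for vehicle and 27851677, 28894151 and 28641986 counts for TGFβ. Levels are CPM, each gene's count relative to the size of its library after TMM scaling, which corrects for differences in composition. Treatment was visible in *Acta2*, the smooth muscle actin of myofibroblasts (log2 fold change 1.03, edgeR adjusted p = 6.93e-05). Of the markers fixed for the label, all 11 fibroblast genes were present, with a summed level of 54401 to 64202 CPM in vehicle and 51053 to 56858 CPM with TGFβ. Among these 11, 7 were called lower and the other 4 were not called, with a median log2 fold change of -0.35. That is 63.6% called at an edgeR adjusted p under 0.05, against 40.7% of all tested genes (20.5% higher and 20.1% lower). The 6 genes of cardiac origin, among them *Tcf21*, *Gata4* and *Tbx20*, summed to 964 to 1121 CPM in vehicle and 677 to 720.2 CPM with TGFβ. Other cell types were at lower sums: 459 to 714 CPM in vehicle and 418 to 582 CPM with TGFβ for 8 of 8 endothelial genes, 250.4 to 357 and 216 to 322 CPM for 7 of 8 leukocyte genes, and 24.1 to 85.1 and 15.2 to 41.3 CPM for 5 of 5 mesothelial genes. Most of the fibroblast sum in vehicle was *Col1a1*, *Col1a2* and *Col3a1*, with means of 19992, 13657 and 18280 CPM. The sums therefore do not measure numbers of cells. Gene by gene the lists overlapped, as endothelial *Cdh5* had a mean of 200 CPM in vehicle and fibroblast *Thy1* 76.3 CPM. The 6 smooth muscle and pericyte genes summed to 140 to 213 CPM in vehicle and 162 to 248 CPM with TGFβ. Of these, 1 (16.7%), *Cspg4*, named after its value was seen, was called higher (1.45, edgeR adjusted p = 0.000614). For 5 of 6 cardiomyocyte genes the sums were 38.3 to 59.1 CPM in vehicle and 27.1 to 40.1 CPM with TGFβ. For 5 of 5 platelet genes they were 11.4 to 15.9 and 8.30 to 12.7 CPM. The part of these cell types in the integrin changes was not tested.

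Most of the integrin subunits changed with TGFβ: 6 rose, 2 fell and 2 did not pass the test. *Itga5*, *Itga11* and *Itga4* rose to about the same extent, with fold changes of 2.22, 2.18 and 2.09, and *Itga1* and *Itga8* fell to 0.516 and 0.491 of their vehicle level. *Itgb5*, *Itgav* and *Itgb1* rose by smaller factors of 1.38, 1.31 and 1.15, while *Itgb3* and *Itgb8* had values of 1.04 and 0.886 that did not pass. The 8 calls stand beside a background of 40.7% of all tested genes called, 20.5% higher and 20.1% lower, at an adjusted p of 0.05 (quasi-likelihood test of edgeR, p-values adjusted over the 14334 genes by the Benjamini-Hochberg method). In 8 of the 10 the 3 vehicle and 3 TGFβ libraries did not overlap, against 53.3% of all tested genes (27.2% with TGFβ above and 26.1% with TGFβ below). The median log2 fold change was 0.30 over the members and 0.00 over all genes, and the median of its absolute size 0.71 against 0.21. The members were chosen with earlier results of these data known, so these shares and medians only describe them. Of the 12 other integrin subunits tested, 41.7% were called. These were bulk cultures, in which fewer cells of a type and less RNA per cell cannot be told apart.

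**Figure D1:**
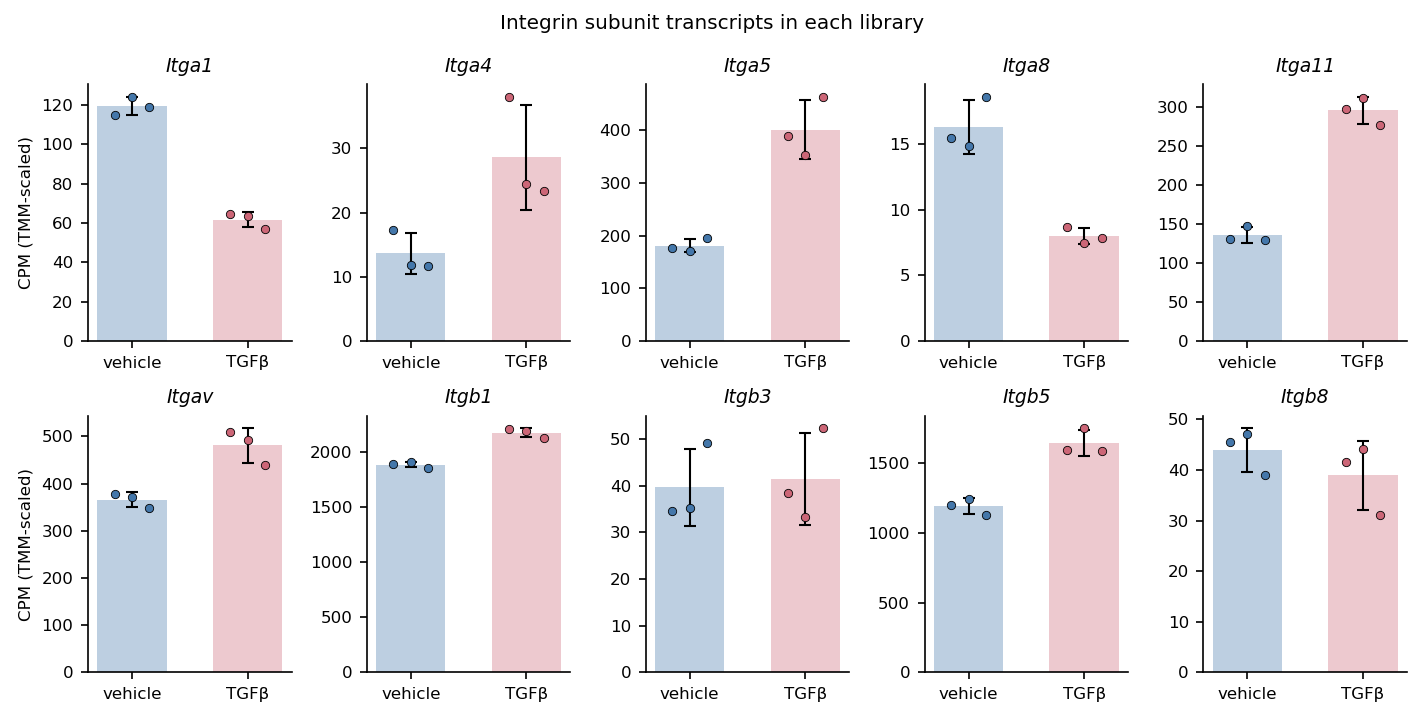
Level of each integrin subunit transcript in CPM (vertical axes, each from 0) in 3 vehicle and 3 TGFβ libraries. Points are libraries, bars are means and whiskers are the SD. The groups are apart in 8 panels and overlap for *Itgb3* and *Itgb8*.

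**Figure D2:**
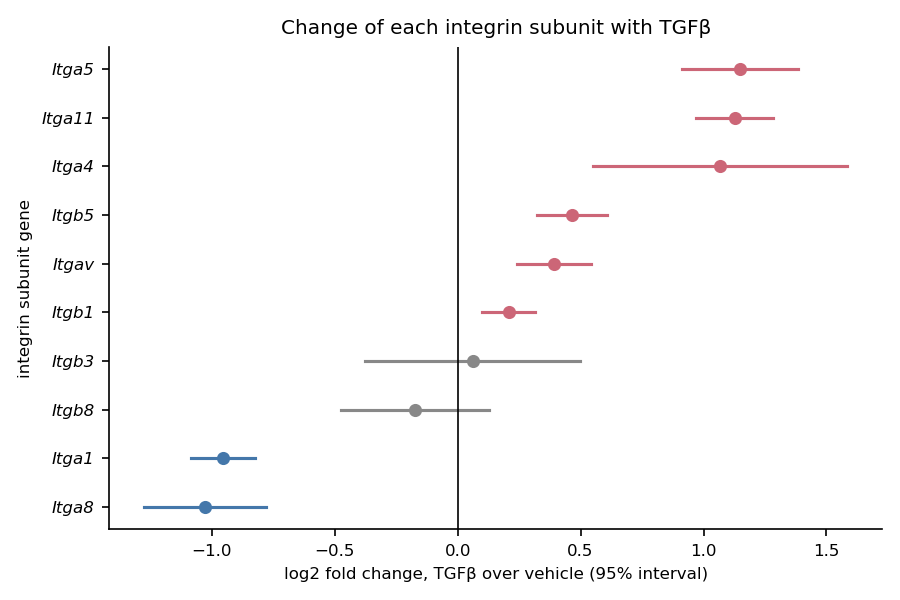
Change of each subunit gene as the log2 of TGFβ over vehicle, with the 95% interval of the edgeR fit. Red points were called higher, blue points lower and grey points were not called. *Itga5* is at the top with 1.15 and *Itga8* at the bottom with -1.03.

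The collagen-binding subunits moved in opposite directions. *Itga11* (ENSMUSG00000032243, chr9:62677826-62783982, plus strand, GRCm38) encodes α11, the collagen I receptor subunit that is typical of fibroblasts. It had 130.3, 147 and 129 CPM in vehicle and 298, 313 and 278 CPM with TGFβ. Every TGFβ library was above every vehicle library, and the means were 136 ± 10.1 and 296 ± 17.6 CPM (SD, n = 3 each). Its log2 fold change was 1.13 with a standard error of 0.07 and a 95% interval of 0.97 to 1.28 (edgeR adjusted p = 2.3e-05). Of all tested genes, 5.68% moved at least that far in either direction.

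*Itga1* (ENSMUSG00000042284, chr13:114953096-115101964, minus strand) encodes α1, which binds collagen IV of basement membranes as well as collagen I. It had 115, 124 and 119 CPM in vehicle and 64.4, 63.4 and 57.2 CPM with TGFβ. The groups were well apart, the lowest vehicle library lying above the highest TGFβ library, and the means were 119 ± 4.66 and 61.6 ± 3.87 CPM (SD, n = 3 each). Its log2 fold change was -0.95 with a standard error of 0.06 and a 95% interval of -1.08 to -0.83 (edgeR adjusted p = 2.02e-05). Part of the locus is shared with other annotated genes, and *Pelo*, which lies inside it on the same strand, had 314 to 345 counts in vehicle and 278 to 319 counts with TGFβ against 3554 to 3687 and 1631 to 1769 for *Itga1*. *Pelo* itself had a log2 fold change of 0.00 (edgeR adjusted p = 0.985).

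Because both genes were counted in the same library, the ratio of *Itga11* to *Itga1* counts does not depend on how libraries were scaled. Vehicle libraries had ratios of 1.13, 1.18 and 1.08, and TGFβ libraries 4.63, 4.93 and 4.85. The ranges did not overlap, and the mean ratio went from 1.13 ± 0.05 to 4.81 ± 0.155 (SD, n = 3 each), a factor of 4.24. An exact two-sided permutation test gave p = 0.1, the smallest value that 3 libraries against 3 allow, and 0.2 after adjustment over the 2 ratios computed. Counted together and per kb of exon, the pair went from 32.9 ± 2.20 to 61.0 ± 3.61 CPM per kb (SD, n = 3 each), so that the sum was higher although one partner fell.

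The upstream DNA of this pair is shown because the genes share a ligand class and moved apart. The sequences are the 250 bases before the RefSeq start in GRCm38.p6, read 5′ to 3′ along the gene, at chr9:62677605-62677854 for *Itga11* and chr13:115101965-115102214 for *Itga1*. Capitals mark a match to a searched motif on either strand.
Itga11: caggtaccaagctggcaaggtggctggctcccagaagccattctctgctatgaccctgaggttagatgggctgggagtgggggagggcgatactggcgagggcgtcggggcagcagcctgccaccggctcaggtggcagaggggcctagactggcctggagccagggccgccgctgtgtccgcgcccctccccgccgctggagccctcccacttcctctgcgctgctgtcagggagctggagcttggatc
Itga1: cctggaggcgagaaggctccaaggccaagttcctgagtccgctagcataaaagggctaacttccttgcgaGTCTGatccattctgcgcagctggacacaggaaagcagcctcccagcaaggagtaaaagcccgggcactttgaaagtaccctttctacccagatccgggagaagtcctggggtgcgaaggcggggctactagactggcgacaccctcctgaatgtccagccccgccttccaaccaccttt
The motifs searched were CAGAC (the core bound by SMAD proteins), TGANTCA (AP-1), GGAATG (TEAD) and the CArG box (SRF). The *Itga11* window had no match and the *Itga1* window 1, a CAGAC on the opposite strand from -180 to -176 relative to the start. Such a match is common, since 42.2% of 32851 promoter windows of that length held CAGAC.

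The RGD receptor subunits also split. *Itga5* (ENSMUSG00000000555, chr15:103344286-103366763, minus strand) encodes α5, whose pair with β1 is the main receptor for fibronectin. It had 177, 172 and 195 CPM in vehicle and 388, 352 and 464 CPM with TGFβ. The TGFβ library of 28641986 counts stood above the other two of its group, and all 3 were above every vehicle library. Means were 181 ± 12.0 and 401 ± 56.9 CPM (SD, n = 3 each), with a log2 fold change of 1.15, a standard error of 0.10 and a 95% interval of 0.91 to 1.38 (edgeR adjusted p = 0.000121). This was the largest fold change among the 10 genes, and 5.43% of all tested genes moved at least as far. The highest library of each group had 29331999 counts in vehicle and 28641986 counts with TGFβ. Both also had the highest sum of the 8 endothelial genes, 714 and 582 CPM. *Tek* was the exception in that list, lowest of its group in both at 74.6 and 83.8 CPM. The same libraries were highest in the leukocyte sum (357 and 322 CPM) and in the smooth muscle and pericyte sum (213 and 248 CPM). Between the groups the endothelial sum ranged from 459 to 714 and from 418 to 582 CPM. The part of these cell types in the spread of *Itga5* was not tested, and leaving out each library in turn gave log2 fold changes of 1.03 to 1.23.

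*Itga8* (ENSMUSG00000026768, chr2:12106632-12301922, minus strand) encodes α8, which pairs with β1 and binds nephronectin and fibronectin. It was a low transcript with 15.4, 14.8 and 18.6 CPM in vehicle and 8.66, 7.48 and 7.82 CPM with TGFβ. No TGFβ library reached the lowest vehicle library, and the means were 16.3 ± 2.03 and 7.99 ± 0.607 CPM (SD, n = 3 each). Its log2 fold change was -1.03 with a standard error of 0.11 and a 95% interval of -1.27 to -0.78 (edgeR adjusted p = 0.000264). The counts behind it were 440 to 555 in vehicle and 209 to 237 with TGFβ.

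*Itgav* (ENSMUSG00000027087, chr2:83724397-83806916, plus strand) encodes αv, the shared partner of β3, β5 and β8. It had 379, 371 and 349 CPM in vehicle and 510.1, 493 and 439.9 CPM with TGFβ. The groups did not overlap, and the means were 366 ± 15.7 and 481 ± 36.6 CPM (SD, n = 3 each). Its log2 fold change of 0.39, with a standard error of 0.06 and a 95% interval of 0.24 to 0.54 (edgeR adjusted p = 0.00235), was well below that of *Itga5*, and 27.3% of tested genes moved at least as far. Together the RGD-binding α subunits went from 73.0 ± 1.55 to 127 ± 8.86 CPM per kb (SD, n = 3 each).

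For the RGD pair that moved furthest in each direction the same upstream windows are given, at chr15:103366792-103367041 for *Itga5* and chr2:12301945-12302194 for *Itga8*, with capitals again reserved for motif matches.
Itga5: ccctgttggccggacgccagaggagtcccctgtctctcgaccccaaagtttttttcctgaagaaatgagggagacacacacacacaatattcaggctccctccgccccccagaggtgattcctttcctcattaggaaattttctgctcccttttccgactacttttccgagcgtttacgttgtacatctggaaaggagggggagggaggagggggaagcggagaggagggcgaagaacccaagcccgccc
Itga8: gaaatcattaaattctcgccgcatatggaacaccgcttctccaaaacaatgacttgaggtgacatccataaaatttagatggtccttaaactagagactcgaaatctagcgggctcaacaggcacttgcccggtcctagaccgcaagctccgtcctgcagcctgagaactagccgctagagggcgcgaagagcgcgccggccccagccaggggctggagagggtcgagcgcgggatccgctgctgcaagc
Neither window held a match to any of the 4 motifs, which says only that these letters are not in these 250 bases. No *Itgb3* window was read. Of the other 9 members, TGANTCA and the CArG box were found in 0, against 6.75% and 1.47% of all windows.

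*Itga4* (ENSMUSG00000027009, chr2:79255426-79333123, plus strand) encodes α4, a receptor subunit for Vcam1 and for the alternatively spliced connecting segment of fibronectin, best known from leukocytes. It had 17.3, 11.9 and 11.7 CPM in vehicle and 38.1, 24.4 and 23.4 CPM with TGFβ. In each group 1 library was above the other 2, and the groups still did not overlap. Means were 13.6 ± 3.20 and 28.6 ± 8.20 CPM (SD, n = 3 each), with a log2 fold change of 1.07, a standard error of 0.22 and a 95% interval of 0.55 to 1.58 (edgeR adjusted p = 0.00691). That is the widest interval among the 8 subunits called.

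The libraries high in *Itga4* were those of 31072338 counts in vehicle and 27851677 counts with TGFβ. They also had the highest sum of the 5 mesothelial genes, 85.1 and 41.3 CPM, none of which was at 0. The same libraries were highest in the cardiomyocyte sum, 59.1 and 40.1 CPM, nearly all of it *Tnnt2* (58.3 and 39.5 CPM). The leukocyte sums of these libraries, mostly *Lyz2* (201 and 172 CPM), were the lowest of their groups at 250.4 and 216 CPM. Between the groups, the mesothelial sum ranged from 24.1 to 85.1 CPM in vehicle and from 15.2 to 41.3 CPM with TGFβ. The part of these cell types in the spread of *Itga4* was not tested. Leaving out each library in turn gave log2 fold changes of 0.81 to 1.28 and an edgeR adjusted p of at most 0.0278. The antisense gene *Cerkl* overlaps 10.1% of the 75-base windows of the *Itga4* exons and whether counting used strand is not stated, and *Cerkl* had 68 to 88 counts in vehicle and 46 to 54 with TGFβ, against 348 to 551 and 666 to 1041 for *Itga4*.

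The common β1 subunit moved little. *Itgb1* (ENSMUSG00000025809, chr8:128685654-128733200, plus strand) encodes β1, the partner of α1, α4, α5, α8, α11 and, in part, αv. It had 1890.2, 1911 and 1862 CPM in vehicle and 2213, 2191 and 2135 CPM with TGFβ. The groups did not overlap although they were close, because the spread was the smallest among the members, with a coefficient of variation of 1.31% in vehicle and 1.84% with TGFβ. The means were 1888 ± 24.7 and 2180 ± 40.2 CPM (SD, n = 3 each), with a log2 fold change of 0.21, a standard error of 0.05 and a 95% interval of 0.10 to 0.32 (edgeR adjusted p = 0.00941). A change of that size was ordinary here, as 50.1% of tested genes moved at least as far.

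The *Itgb1* window, at chr8:128685404-128685653, is shown because it held the most motif matches of the members.
Itgb1: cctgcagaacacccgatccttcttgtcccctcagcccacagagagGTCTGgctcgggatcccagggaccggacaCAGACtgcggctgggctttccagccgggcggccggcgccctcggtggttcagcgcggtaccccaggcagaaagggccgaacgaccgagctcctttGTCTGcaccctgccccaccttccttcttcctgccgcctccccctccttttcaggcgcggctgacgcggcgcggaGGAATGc
It contained 3 CAGAC matches, at -205 to -201, -176 to -172 and -81 to -77, and 1 GGAATG at -7 to -2, none overlapping another. GGAATG was present in 12.6% of all windows and in no other member. CAGAC was present in 4 of the 9 members read, *Itga1*, *Itga4*, *Itgb1* and *Itgb8*, against 42.2% of all windows. Those 4 include 2 genes that rose, 1 that fell and 1 that was not called. The *Itgb8* window, set by the RefSeq start, is at chr12:119238277-119238526, inside the gene span given for *Itgb8* below.

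Of the member partners of αv other than β1, β5 rose, and β3 and β8 did not pass. *Itgb5* (ENSMUSG00000022817, chr16:33829665-33949338, plus strand) encodes β5, the vitronectin receptor subunit of many mesenchymal cells and a part of the machinery that frees latent TGFβ under tension. It had 1203, 1244 and 1133 CPM in vehicle and 1595, 1752 and 1591 CPM with TGFβ. The groups were separate, with means of 1193 ± 56.4 and 1646 ± 92.1 CPM (SD, n = 3 each). Its log2 fold change was 0.46 with a standard error of 0.06 and a 95% interval of 0.32 to 0.61 (edgeR adjusted p = 0.000823). Of its 75-base exon windows, 7.45% are shared with the annotated gene *Gm38317*.

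*Itgb3* (ENSMUSG00000020689, chr11:104608000-104670476, plus strand) encodes β3, the subunit of platelet and endothelial receptors for fibrinogen and vitronectin. It had 34.5, 35.3 and 49.2 CPM in vehicle and 38.4, 33.3 and 52.3 CPM with TGFβ. The groups overlapped throughout, and the log2 fold change was 0.06 with a standard error of 0.19 and a 95% interval of -0.38 to 0.50 (edgeR adjusted p = 0.824). The highest library of each group was the one highest in *Itga5* and in the endothelial, leukocyte, and smooth muscle and pericyte sums. The exceptions given with *Itga5* (*Tek*, *Ptprc* and *Myh11*) hold here too. None of the 8 endothelial genes was at 0. The part of those cell types in the spread of *Itgb3* was not tested. Without 1 of 3 single libraries the sign turned, to -0.03 without the vehicle library of 31072338 counts, -0.02 without that of 29296570 and -0.15 without the TGFβ library of 28641986. It is not stated whether libraries at the same place in both groups share a culture. If they do, removing 1 library breaks a pair.

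*Itgb8* (ENSMUSG00000025321, chr12:119158022-119238802, minus strand) encodes β8, whose pair with αv activates latent TGFβ. It had 45.6, 47.2 and 39.0 CPM in vehicle and 41.5, 44.2 and 31.1 CPM with TGFβ. The groups overlapped, and the log2 fold change was -0.17 with a standard error of 0.13 and a 95% interval of -0.48 to 0.13 (edgeR adjusted p = 0.324). The interval leaves room for a fall larger than the rise seen in *Itgav*, so the data do not show that *Itgb8* was level.

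The within-library ratio of *Itgb3* to *Itgb5* counts, which compares β3 and β5 as partners of αv, was 0.0287, 0.0283 and 0.0434 in vehicle and 0.0241, 0.0190 and 0.0328 with TGFβ. These ranges overlapped. With means taken on the log2 scale, the ratio was 0.752 of its vehicle value (exact two-sided permutation p = 0.3, also 0.3 after adjustment over the 2 ratios). Summed per kb, the 3 partners of αv other than β1 among the members went from 347 ± 15.0 to 474 ± 25.2 CPM per kb (SD, n = 3 each), nearly all of it *Itgb5*.

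To place the subunits in order, CPM was divided by the length of the merged exons in kb, which makes levels comparable between genes. In vehicle, *Itgb1* (463 CPM per kb) and *Itgb5* (336) were far above the α subunits. They were followed by *Itga5* (36.7), *Itgav* (34.1), *Itga11* (26.4), *Itgb3* (6.72), *Itga1* (6.42), *Itgb8* (3.97), *Itga8* (2.21) and *Itga4* (0.97). Ranges over libraries overlapped between the neighbours *Itga5* and *Itgav* and between *Itgb3* and *Itga1*, so the order inside those pairs was not resolved. With TGFβ the order was *Itgb1* (534 CPM per kb), *Itgb5* (463), *Itga5* (81.4), *Itga11* (57.7), *Itgav* (44.8), *Itgb3* (7.004), *Itgb8* (3.52), *Itga1* (3.31), *Itga4* (2.05) and *Itga8* (1.08). Here the ranges of the neighbours *Itgb8* and *Itga1* overlapped, and those of the other neighbours did not. *Itga4* thus passed *Itga8*, and *Itga11* passed *Itgav* on merged exons but not on the longest transcript, where *Itga11* had 59.6 and *Itgav* 68.2 CPM per kb with TGFβ. The place of *Itga1* also depended on the length used. On the longest transcript it had 10.9 CPM per kb against 6.86 for *Itgb3* in vehicle. With TGFβ it had 5.62 against 4.63 for *Itgb8*.

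Expressed as shares of the summed level of the 6 α subunits per kb, *Itga5* went from 34.4% ± 2.34 to 42.7% ± 4.96 and *Itga11* from 24.7% ± 1.70 to 30.4% ± 2.64 (SD, n = 3 each). *Itgav* went down from 31.9% ± 1.45 to 23.6% ± 2.20 although its own level had risen. *Itga1* went from 6.01% ± 0.19 to 1.74% ± 0.14 and *Itga8* from 2.07% ± 0.26 to 0.57% ± 0.04. None of these 5 shares overlapped between the groups. *Itga4* held 0.91% ± 0.22 in vehicle and 1.07% ± 0.30 with TGFβ, which overlapped.

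Among the 4 β subunits the shares moved less. *Itgb1* went from 57.2% ± 0.743 to 53.0% ± 1.27, *Itgb5* from 41.5% ± 0.892 to 45.9% ± 1.34 and *Itgb8* from 0.490% ± 0.037 to 0.349% ± 0.054, each without overlap (SD, n = 3 each). Shares of the same sum are not independent, and *Itgb1* and *Itgb5* made up nearly all of this sum, so their shares mirror each other. The level of *Itgb1* itself had risen, and that of *Itgb8* was not called. *Itgb3* overlapped at 0.834% ± 0.195 and 0.698% ± 0.184. The 8 shares without overlap each had an exact two-sided permutation p = 0.1, the smallest possible, or 0.125 adjusted over the 10 shares, and those of *Itga4* and *Itgb3* had 0.5. With the length of the longest transcript in place of merged exons, *Itgav* rather than *Itga5* was the most abundant α subunit in vehicle, at 38.4% against 30.3%, and *Itga5* led with TGFβ, at 39.7% against 29.8%.

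**Figure D3:**
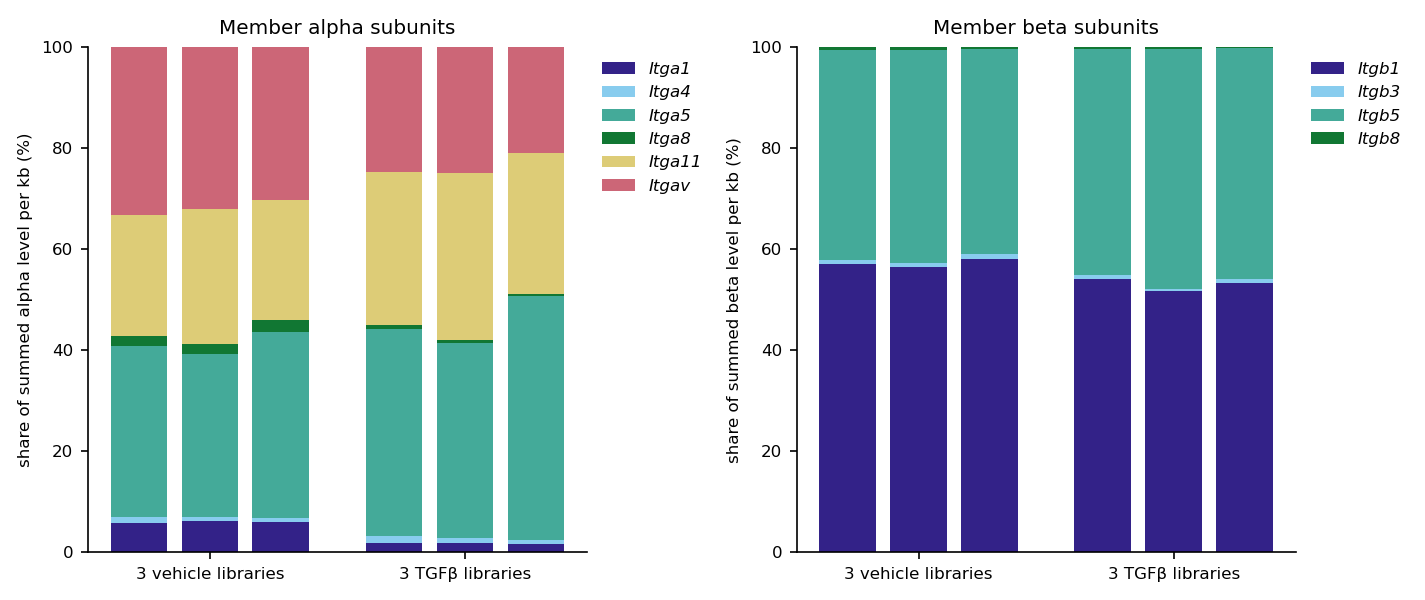
Share (%) of each subunit in the summed level per kb of the 6 α subunits (left) and the 4 β subunits (right), with 1 bar per library. Teal (*Itga5*) and yellow (*Itga11*) widen in the TGFβ libraries on the left while red (*Itgav*) and dark blue (*Itga1*) narrow, and on the right *Itgb5* widens from 41.5% to 45.9%.

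Summed levels of α and β subunits were also compared. The α sum went from 107 ± 0.78 to 190.3 ± 5.38 CPM per kb, a factor of 1.78, and that of the β subunits from 809 ± 21.02 to 1008 ± 29.2, a factor of 1.25 (SD, n = 3 each). The ratio of both sums, which was computed after the values had been seen, was 0.131, 0.130 and 0.136 in vehicle and 0.191, 0.177 and 0.198 with TGFβ. The groups did not overlap, and the ratio went up by a factor of 1.43 (exact two-sided permutation p = 0.1, the smallest possible). These are transcript levels, and neither protein nor its pairing at the surface was measured.

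Of 17 other integrin subunits listed, 16 were in the table, 12 passed the filter, and 3 were called higher, 2 lower and 7 not at all, with a median log2 fold change of -0.11. That is 41.7% called, close to the 40.7% of all tested genes. *Itga3*, a laminin receptor subunit, had 30.4 to 39.8 CPM in vehicle and 42.3 to 59.7 CPM with TGFβ (log2 fold change 0.48, edgeR adjusted p = 0.0259). *Itga9*, a relative of α4 that binds tenascin C, had 83.3 to 109 and 115 to 155 CPM (0.46, edgeR adjusted p = 0.0296). *Itgal*, a leukocyte subunit, rose from 0.691 to 1.62 CPM in vehicle to 2.52 to 2.81 CPM with TGFβ (1.15, edgeR adjusted p = 0.012), while the summed leukocyte genes ranged from 250.4 to 357 and from 216 to 322 CPM, a sum whose part in *Itgal* was not tested.

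The collagen receptor *Itga2* fell by 0.59 on the log2 scale (edgeR adjusted p = 0.0166), from 8.80 to 11.5 CPM down to 5.77 to 8.07 CPM, which sets it beside *Itga1* and apart from *Itga11*. *Itga2b*, the platelet α subunit, fell by 0.69 at 1.22 to 2.55 CPM over all libraries (edgeR adjusted p = 0.0287). *Itga10*, another collagen receptor subunit, had a log2 fold change of -0.82 and did not pass (edgeR adjusted p = 0.0678). *Itga6* (-0.16), *Itga7* (-0.06), *Itgam* (-0.04), *Itgax* (-0.05), *Itgb2* (-0.27) and *Itgb4* (-0.45) were not called either. Among these calls, *Itga2*, *Itga2b*, *Itga3* and *Itga9* each lost theirs on leaving out 1 of 2 to 4 single libraries, with edgeR adjusted p between 0.0597 and 0.0909. *Itga2b* also lost its call in DESeq2 with all libraries (DESeq2 adjusted p = 0.0552). *Itga10* gained a call without the vehicle library of 29296570 counts (edgeR adjusted p = 0.0208). At an adjusted p of 0.01 edgeR called 0 of the 12, DESeq2 4 and limma-voom 1, with 6 at an unadjusted p under 0.05 in edgeR.

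Matrix ligands were listed too, and those named by smallest adjusted p are not always the ligands given above for each subunit. Of 15 RGD and other non-collagen ligands tested, 7 were called higher and 1 lower (53.3% called, against 40.7% of all genes, 20.5% higher and 20.1% lower), with a median of 0.21. *Tnc*, tenascin C, rose by 0.92 on the log2 scale (edgeR adjusted p = 8.71e-06) and *Ccn2*, a matricellular ligand of several integrins, by 1.49 (edgeR adjusted p = 2.03e-05). The 1 lower gene was *Vcam1*, the cell-surface ligand of α4β1, with -0.94 (edgeR adjusted p = 0.000729), the opposite direction to *Itga4*. *Fn1*, fibronectin, named here after its value was seen because it is the ligand of α5β1, had 17672 to 19786 CPM in vehicle and 16500 to 20913 CPM with TGFβ, a log2 fold change of 0.04 that did not pass (edgeR adjusted p = 0.786) beside the rise of *Itga5*. Nephronectin, *Npnt*, and vitronectin, *Vtn*, are likewise named after their values were seen. *Npnt* (-0.03, edgeR adjusted p = 0.943) and *Vtn* (-0.39, edgeR adjusted p = 0.463) were not called, and *Vtn* had only 4 to 12 counts per library.

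Of 11 collagen ligand genes, 3 were called higher and 4 lower, with a median of -0.14. That is 63.6% called, against 40.7% of all genes (20.5% higher and 20.1% lower). *Col5a2* (0.40, edgeR adjusted p = 0.000857) and *Col6a3* (0.64, edgeR adjusted p = 0.00156) rose, and the other collagen VI chains *Col6a2* (-1.30, edgeR adjusted p = 7.59e-06) and *Col6a1* (-1.32, edgeR adjusted p = 8.73e-06) fell. The listed chains of collagens I and IV, ligands given above for α11 and α1, were not called. They were *Col1a1* (0.23, edgeR adjusted p = 0.055), *Col1a2* (0.13, edgeR adjusted p = 0.196), *Col4a1* (-0.14, edgeR adjusted p = 0.196) and *Col4a2* (-0.24, edgeR adjusted p = 0.052). Of the 5 genes for latent TGFβ and its carriers, the cargo of αv integrins, 3 rose and the other 2 were not called. That is 60.0% called, against the same 40.7% of all genes, in a list of only 5, with a median of 0.61. Those that rose included *Ltbp1*, which anchors the latent complex to matrix (1.59, edgeR adjusted p = 1.67e-05), and *Tgfb3* (0.61, edgeR adjusted p = 0.000365). *Itgav* and *Itgb5* rose, as did 3 of these 5 genes, while *Itgb8* was not called.

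Inside the cell, 7 of 21 adaptor and kinase genes tested were called higher and 4 lower (52.4% called, against 40.7% of all genes), with a median of -0.01, near that of all genes. *Ptk2*, the focal adhesion kinase, rose by 0.42 (edgeR adjusted p = 0.000155) and *Lims2*, an adaptor of integrin-linked kinase, by 0.56 (edgeR adjusted p = 0.000293). *Dab2*, an endocytic adaptor of β1, fell by 0.63 (edgeR adjusted p = 5.53e-05) and *Krit1*, a partner of the β1-binding protein ICAP1, by 0.31 (edgeR adjusted p = 0.00134). Of 10 membrane partners, 2 rose and 5 fell (70.0% called), with a median of -0.30. *Slc3a2*, which binds β subunits, rose by 0.49 (edgeR adjusted p = 0.000192) and *Plaur*, the urokinase receptor, by 0.76 (edgeR adjusted p = 0.0289, with overlapping groups), whereas the tetraspanin *Cd9* fell by 0.67 (edgeR adjusted p = 9.73e-05) and *Cd47* by 0.50 (edgeR adjusted p = 0.000113).

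**Figure D4:**
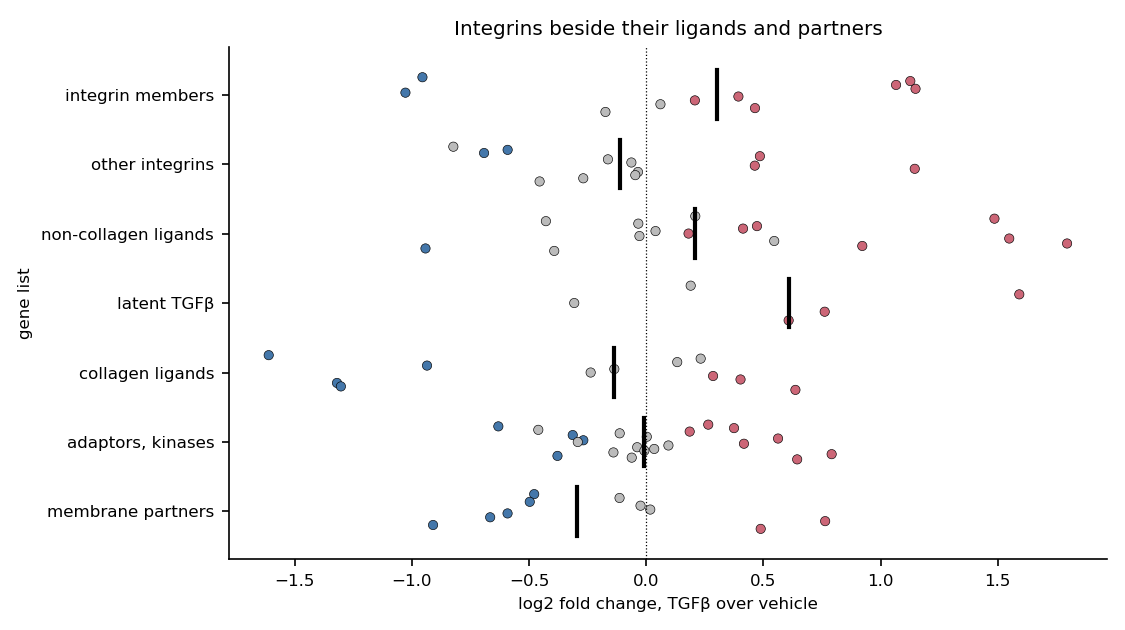
Log2 ratio of TGFβ over vehicle (horizontal axis) of every tested gene of the integrin members and of 6 other gene lists (vertical axis). Red points were called higher, blue lower and grey not called, and black bars are list medians. The members' median is 0.30, between that of the latent TGFβ genes at 0.61 and that of the membrane partners at -0.30.

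The genes whose level across the 6 libraries was most like that of *Itga5*, the member with the largest change, were sought among the 10372 genes that averaged 5 CPM or more. By Pearson's r of log2 CPM they were *Pitpna* (0.999), *Nupr1* (0.999), *Adss* (0.999), *Hspd1* (0.998) and *Ttyh2* (0.998). The points fall into 2 treatment groups of 3 and share the library scaling, so r is given as a description of likeness alone. Likeness in shape did not mean likeness in size, as the log2 fold change was 1.22 for *Nupr1* but 0.19 for *Pitpna*, 0.26 for *Adss*, 0.45 for *Hspd1* and 0.53 for *Ttyh2*, against 1.15 for *Itga5*.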

How the data were processed

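Poly(A) RNA was made into stranded libraries and read as single 75-base reads. Per the labels, the authors aligned to mm10 and used DESeq2. The aligner, counter, annotation and use of strand in counting are not given in the sources used here. The deposited table gives whole-number read counts per gene and library with no normalization, for 25140 genes. Its other columns hold the authors' mean of normalized counts, log2 fold change, standard error, statistic, p and adjusted p, and were not used. Columns of per-sample values left unused numbered 0.

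The 3 TGFβ libraries were compared with the 3 vehicle libraries in edgeR 4.0.16 (R 4.3.3), with TMM factors, the filterByExpr filter and the quasi-likelihood test. All genes were fitted together and p-values were adjusted over the 14334 genes tested. The biological coefficient of variation was 7.97%. The methods describe 3 biological replicates, and the labels do not say which animals or cultures they came from, so p-values measure the spread between these libraries. Shares and ratios were compared by exact permutation. Gene positions and exon lengths came from GENCODE M21 (GRCm38), which held 25086 of the gene identifiers, and promoter windows from RefSeq (GRCm38.p6), which matched 9 of the 10 members. At 27851677 to 31072338 counts per library, counting error is not small beside the spread between libraries for low genes such as *Itga8* and *Itga2b*.

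The members, gene lists and tests were chosen with earlier results of these data known. The genes named are the members, the other integrin subunits that passed the filter, up to 2 genes with the smallest adjusted p in each direction per further list, the 5 genes most like *Itga5*, and *Acta2*. Genes that overlap a member or share exon windows with it, examples of markers, *Cspg4*, *Fn1*, *Npnt*, *Vtn* and the chains of collagens I and IV are named outside this rule. A result for 1 other gene that this rule takes in is not reported here. Alternatives were other size factors, DESeq2 1.42.0, limma-voom (limma 3.58.1), no filter, a minimum of 1 CPM in 3 libraries, the removal of single libraries, a threshold of 0.01 on the adjusted p, and other lengths and sums for the shares. The edgeR, DESeq2 and limma-voom fits were also run on simulated counts with known changes. Shares, ratios, permutation tests and the motif search were not simulated.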

Additional observations from a re-analysis of the deposited data

How the results depend on the processing

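All 8 calls among the members held under each of the 12 alternatives per member, with an adjusted p of at most 0.0389 (*Itgb1*). In the main fit with all libraries they also held at a threshold of 0.01. With other size factors and all libraries, the edgeR adjusted p of *Itgb1* was above 0.01, at 0.0101 (RLE) and 0.0133 (upper quartile). The log2 fold change ranged from 1.03 to 1.23 for *Itga5*, 1.08 to 1.19 for *Itga11*, 0.81 to 1.28 for *Itga4*, 0.41 to 0.50 for *Itgb5*, 0.35 to 0.45 for *Itgav*, 0.19 to 0.22 for *Itgb1*, -0.99 to -0.91 for *Itga1*, -1.09 to -0.92 for *Itga8* and -0.28 to -0.04 for *Itgb8*. That of *Itgb3*, 0.06, turned sign when a single library was removed, to -0.03 for the vehicle library of 31072338 counts, -0.02 for the vehicle library of 29296570 and -0.15 for the TGFβ library of 28641986, and over the libraries left out it ranged from -0.15 to 0.24, never passing the test. No paired analysis was possible because the columns of the count table carry no replicate number. Taken in column order, the values of some genes ran alike in both groups. *Wt1*, a marker of cardiac origin named after its value was seen, had 6.76, 0.978 and 2.78 CPM in vehicle. With TGFβ it had 7.27, 1.54 and 2.49 CPM. Whether libraries at the same place share a culture is not stated and was not tested. If they do, the intervals and the removal of single libraries take in differences between cultures.

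With all integrin subunits in the sum, the log2 change in the share of *Itga1* was -1.69 in place of -1.79. The log2 change in the ratio of α to β sums was 0.44 with the longest transcript and 0.42 with all integrins in the sum, in place of 0.52. Those last alternatives were chosen after seeing the data. The share of *Itga4*, which was not called, moved from 0.23 to -0.02 on the log2 scale without the TGFβ library of 27851677 counts. Genes called fell from 5828 to 3595 at an adjusted p of 0.01 (1855 higher and 1740 lower), and ranged from 4489 to 5481 with 1 library left out. Other integrin subunits called numbered 2 to 5 with 1 library left out, 3 on removal of the vehicle library of 31072338 counts and 2 on removal of either TGFβ library of 27851677 or 28894151 counts, and 0 at an adjusted p of 0.01. The causes of these shifts were not tested. With 1 library left out, the lower number of libraries and the library removed cannot be told apart. Scaling took the median log2 fold change of all genes no further from 0 than -0.02 (upper quartile factors).

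With 3 libraries in a group the exact test cannot pass 0.05.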
